A study of Rattus norvegicus with 6 samples.

Results

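The miR-99/100 and miR-125 genes, which lie beside let-7 genes in 3 clusters of the rat genome, are described here in AR42J cells. The members are rno-mir-99a, rno-mir-99b, rno-mir-100, rno-mir-125a, rno-mir-125b-1 and rno-mir-125b-2, that is 6 of the 383 miRNA precursors with a read. They were taken by name from the deposited precursor alignments, after results for taurocholate against untreated cells were known. The group was thus chosen by measured values, the log2 fold changes of miRNA read counts in this contrast, in which several members had been higher and let-7 lower. Their taurocholate fold changes are therefore given as a description, with no p-value.

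AR42J is an established line from a tumour of the rat exocrine pancreas, and it keeps features of both acinar and neuroendocrine cells. Small RNA was sequenced from 3 libraries of AR42J cells exposed to 200 µM sodium taurocholate, a bile salt used in models of pancreatitis, for 30 min and from 3 libraries of untreated AR42J cells. Nothing in the labels says whether replicates were separate cultures, so the spread between libraries may be technical. The taurocholate libraries held 3343552, 3780777 and 3637092 miRNA reads and the untreated libraries 3070227, 3987307 and 2791878, of which the members took 3.45% to 4.31% with taurocholate and 2.81% to 3.24% untreated.

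A miRNA precursor is cut into a duplex whose 5p and 3p strands, or arms, come from its left and right sides, and usually 1 arm is kept in the silencing complex. Bases 2 to 8 of the mature miRNA, the seed, choose most of its targets. The miR-125 family descends from the same ancestor as lin-4 of Caenorhabditis elegans, where lin-4 and let-7 time larval development. In Drosophila, miR-100, let-7 and miR-125 are made from 1 shared transcript. In mammals miR-99 and miR-100 are known to repress mTOR, and miR-125b is known to repress p53 in human cells and zebrafish.

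The mature sequences show which members share targets and how each ends, which is later compared with let-7. They are given 5′ to 3′ with the seed in capitals, as in RefSeq for assembly GRCr8, where 16 of 17 mature names looked up were found.
miR-99b-5p: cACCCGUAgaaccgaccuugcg
miR-100-5p: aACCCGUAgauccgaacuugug
miR-125a-5p: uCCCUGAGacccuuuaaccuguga
miR-125b-5p: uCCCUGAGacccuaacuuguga
let-7e-5p: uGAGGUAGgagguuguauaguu
let-7a-5p: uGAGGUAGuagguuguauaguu
miR-99b-3p: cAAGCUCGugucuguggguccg
miR-125b-1-3p: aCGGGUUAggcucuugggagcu
miR-125b-2-3p: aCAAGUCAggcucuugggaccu
miR-99b and miR-100 share the seed ACCCGUA, miR-125a and miR-125b share CCCUGAG, and both let-7 forms have GAGGUAG. The 3p arms of miR-125b-1 and miR-125b-2 do not share a seed. Over the first 22 bases of the most frequent error-free reads, counted from the 5′ end, miR-100 and miR-99a differed at 1 position, A16T, with the miR-100 base first. miR-100 and miR-99b differed at 4 positions, A1C, T11A, A16C and T21C, none of them in the seed. Between miR-125b and miR-125a there were 7 differences, at bases 14 to 19 and base 22 of miR-125b (A14T, A15T, C16A, T17A, T18C, G19C and A22T).

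In RefSeq's GRCr8 annotation, all hairpins lie on the plus strand. miR-99b is at chr1:67350064-67350133, let-7e at chr1:67350229-67350321 and miR-125a at chr1:67350675-67350759, inside the span of the protein-coding gene Spaca6, with 95 and 353 bases between neighbours. miR-100 is at chr8:50798295-50798374, let-7a-2 at chr8:50805203-50805298 and miR-125b-1 at chr8:50850036-50850122, inside the spans of Mir100hgl and the long noncoding RNA Lnc215. There the gaps are 6828 and 44737 bases. miR-99a at chr11:29687392-29687472 and let-7c-1 at chr11:29688112-29688205 are 639 bases apart in the long noncoding RNA LOC103693508, and miR-125b-2 lies within 100000 bases of both. The mature let-7a, let-7c and miR-125b 5p arms are also made from other genes, so their reads do not belong to 1 cluster alone.

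Taurocholate library 1 stood apart in its read ends. There, 22.1% of all miRNA reads ended in a G that did not match the precursor, against 1.53% and 1.90% in the other taurocholate libraries and 5.32%, 1.20% and 1.44% in the untreated ones. Read-end results, fold changes and cluster ratios are therefore also given without this library or without replicate 1 of both groups, where that moves them. Counts of features by their most frequent last base were taken over all libraries alone. The acinar marker miR-148a was at 284171 to 406601 CPM (reads per 1000000 miRNA reads) with taurocholate and 352143 to 421894 CPM untreated, but the acinar markers miR-216a, miR-216b and miR-217 were between 0 and 1.10 CPM in every library. Markers of other cell types were present as summed levels. All 7 stroma and muscle markers had reads, at 11858 to 16777 CPM with taurocholate and 14900 to 16977 CPM untreated, mostly miR-143. All 6 blood and immune markers had reads, at 2774 to 4631 CPM with taurocholate and 2833 to 4790 CPM untreated, while the liver marker miR-122 stayed between 6.88 and 26.7 CPM. The endothelial marker miR-126a was at 48.7 to 294 CPM with taurocholate and 12.5 to 475 CPM untreated. The groups overlap in each of these sums. The neuroendocrine markers miR-375 and miR-7a summed to 41206 to 54718 CPM with taurocholate and 54968 to 59673 CPM untreated. Every taurocholate library was below, but the sum is nearly all miR-7a. miR-375 went the other way, with a log2 fold change of 1.22 for its 3p arm. It had 58.6, 6.08 and 77.5 CPM with taurocholate and 41.4, 2.51 and 7.16 CPM untreated, which overlap. The part of other cell types in the members' levels was not tested.

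The members fell into abundant and modest miRNAs. A read covers the whole mature miRNA, so a level needs no length correction, although ligation differs between sequences and a level is a read count rather than a number of molecules. miR-100-5p had 14440, 12187 and 12952 CPM in taurocholate libraries 1, 2 and 3, against 8835, 10349 and 9701 CPM in the untreated ones. All 3 taurocholate values lie above all 3 untreated values, with a log2 fold change of 0.40 (SE 0.11, edgeR). Its near-twin miR-99a-5p had 10129, 10140 and 9466 CPM with taurocholate and 9778, 9700 and 10536 CPM untreated. Those groups overlap and the log2 fold change was -0.05 (SE 0.16), with 0.04 when taurocholate library 1 was left out.

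miR-99b-5p, whose gene is the first of the Spaca6 cluster, had 10069, 7387 and 8047 CPM with taurocholate and 5274, 6614 and 6174 CPM untreated. Again the groups do not overlap, with a log2 fold change of 0.44 (SE 0.11). Of all 341 tested features (an arm of a precursor, or a set of arms that reads match equally), 6.16% had every taurocholate library above every untreated one. Among the 5 member 5p arms these were miR-99b-5p and miR-100-5p.

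miR-125b-5p had 6094, 2975 and 4004 CPM in taurocholate libraries, against 2428, 3624 and 3209 CPM in untreated ones. Taurocholate library 1 was highest of the 6 and the groups overlap. Its log2 fold change was 0.41 (SE 0.18), and 0.23 without taurocholate library 1. miR-125a-5p, the least abundant 5p member, had 835, 398 and 696 CPM with taurocholate and 351, 619 and 487 CPM untreated. These groups overlap too, with a log2 fold change of 0.32 (SE 0.22), 0.20 without taurocholate library 1 and 0.10 without replicate 1 of both groups. Leaving out that pair of libraries gave 0.17 for miR-125b-5p, 0.14 for miR-99a-5p, 0.50 for miR-100-5p and 0.44 for miR-99b-5p.

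Ordered by mean level, the taurocholate group had miR-100-5p at 13193 ± 1146, miR-99a-5p at 9911 ± 386, miR-99b-5p at 8501 ± 1397, miR-125b-5p at 4357 ± 1589 and miR-125a-5p at 643 ± 224 CPM (SD, n = 3). In this order miR-99a-5p and miR-99b-5p overlap and the other neighbours do not. The untreated group had miR-99a-5p at 10005 ± 462, miR-100-5p at 9628 ± 760, miR-99b-5p at 6020 ± 683, miR-125b-5p at 3087 ± 607 and miR-125a-5p at 486 ± 134 CPM (SD, n = 3). Here miR-99a-5p and miR-100-5p overlap. By mean level over all libraries miR-100-5p ranked 10th and miR-125a-5p 81st of 662 features. Reads that matched miR-99a and miR-100 equally were kept apart. They were 0.691% of the reads of that pair, and all of them carried a mismatch.

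**Figure D1:**
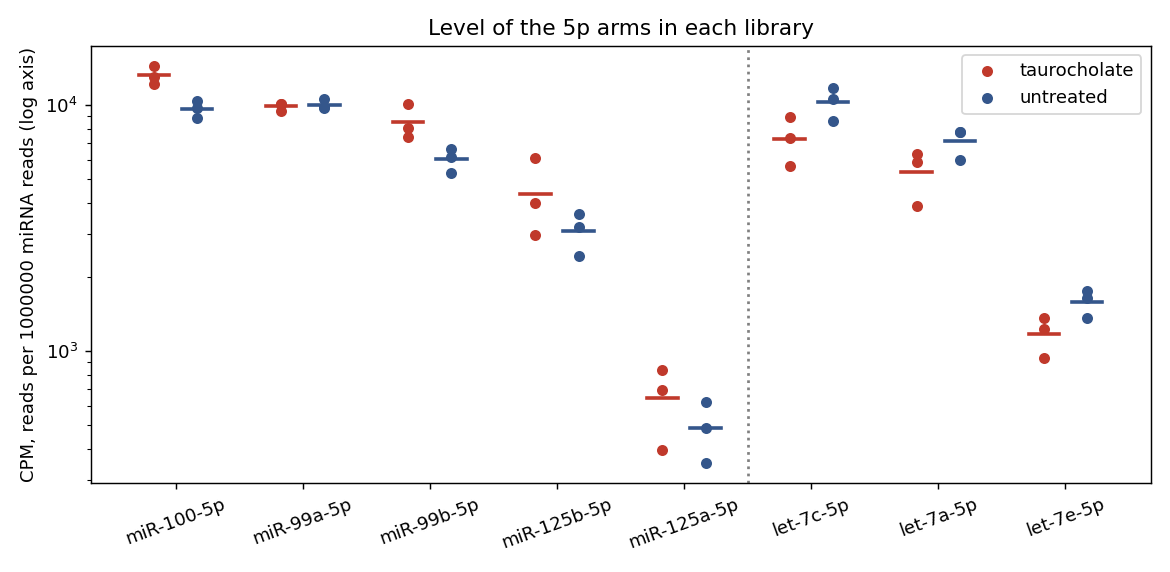
Reads per 1000000 miRNA reads (log axis) of the 5 member 5p arms, left of the dotted line, and of 3 let-7 5p arms, in 3 taurocholate libraries (red) and 3 untreated libraries (blue); each point is a library and each bar the group mean. miR-100-5p and miR-99b-5p separate the groups, miR-99a-5p lies at 9466 to 10536 CPM in both, and the let-7 means are lower with taurocholate.

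No feature passed an adjusted p of 0.05 in edgeR's quasi-likelihood test (0 of 341, 0%), where 16.7% had an unadjusted p under 0.05. With DESeq2's Wald test 18 of 338 features passed (5.33%). Log2 fold changes were positive for 4 of 5 member 5p arms (median 0.40) and for 152 of all 341 tested features (median -0.04). The 9 let-7 and miR-98 5p arms were all negative (median -0.44), and 1 of them had every taurocholate library below every untreated one, as did 7.62% of all features. Since the members were chosen with this contrast known, these counts describe them and support nothing further.

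Summed by seed, miR-99/100 5p reads reached 34883, 29847 and 30592 CPM with taurocholate and 24018, 26790 and 26545 CPM untreated. The groups do not overlap, and the taurocholate mean was higher by 0.30 on the log2 scale. Within that sum miR-99a-5p made up 29.0%, 34.0% and 30.9% with taurocholate against 40.7%, 36.2% and 39.7% untreated, while miR-100-5p and miR-99b-5p took larger shares. The miR-125 seed summed to 6929, 3372 and 4700 CPM with taurocholate and 2779, 4242 and 3696 CPM untreated, which overlap. miR-125b-5p supplied 85.2% to 88.2% of it with taurocholate and 85.4% to 87.4% untreated.

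Related genes outside the clusters had log2 fold changes near 0. miR-10a-5p and miR-10b-5p, of the miR-10 family to which miR-99/100 is related, had log2 fold changes of -0.02 (SE 0.12) and 0.00 (SE 0.11). miR-351-5p, which carries the miR-125 seed in rodents, had -0.14 (SE 0.16). All 3 overlap between the groups.

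The passenger arms showed how strongly each hairpin favours its 5p side. Of all arm-assigned reads, 3p took 0.0176% for miR-99a, 0.0510% for miR-100, 4.94% for miR-99b, 8.13% for miR-125a and 18.5% for miR-125b. miR-99a-3p had 3, 1 and 7 reads with taurocholate and 5, 9 and 11 untreated, too few for the test. Of the 12 member features 10 passed the filter on low counts. The exceptions were miR-99a-3p and the 2 reads shared between miR-99a-3p and miR-99b-3p.

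miR-99b-5p had 20.7, 20.5 and 20.9 reads per 3p read with taurocholate, against 14.4, 18.5 and 19.3 untreated. This ratio lay above every untreated library, as did that of miR-100, at 2541, 2710 and 1963 with taurocholate and 1356, 1876 and 1425 untreated. On the log2 scale the miR-99b ratio differed by 0.26, and by 0.13 without untreated library 1. The miR-100 ratio rests on 17 to 24 reads of miR-100-3p per library. The exact permutation test (two-sided) gave p = 0.1 for both, the lowest that 3 against 3 libraries allow, and 0.25 after Benjamini-Hochberg adjustment over 5 genes. Among 38 genes with at least 100 reads of each arm in each library, 15.8% had a ratio above in this way. For miR-99a, miR-125a and miR-125b the groups overlap (adjusted exact permutation p 0.3). The 5p reads in these ratios belong to the values by which the members were chosen. The p-values are therefore part of the description and support nothing further.

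With all libraries, the 3p arms of miR-99b, miR-125a and miR-125b had log2 fold changes nearer to 0 than their 5p arms. miR-99b-3p had 487, 361 and 384 CPM with taurocholate and 366, 357 and 321 CPM untreated, a log2 fold change of 0.17 (SE 0.16). miR-125b-3p had 782, 884 and 779 CPM with taurocholate and 865, 961 and 785 CPM untreated, with -0.13 (SE 0.21). For miR-125a-3p the log2 fold change was -0.07 (SE 0.16) at 43.1 to 56.1 CPM with taurocholate and 41.0 to 55.7 CPM untreated. All 3 pairs of groups overlap, and the 3p fold changes of miR-125a and miR-125b change sign without taurocholate library 1 (0.07 and 0.01). Without replicate 1 of both groups the arms were closer in miR-125a (3p 0.05, 5p 0.10) and miR-125b (3p 0.12, 5p 0.17). In miR-99b they were then 0.31 for 3p and 0.44 for 5p.

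The 3p arms also tell the 2 miR-125b genes apart, which the shared 5p arm cannot. miR-125b-1-3p, from the miR-100 cluster, had 761, 862 and 752 CPM with taurocholate and 843, 938 and 760 CPM untreated. miR-125b-2-3p, from the miR-99a cluster, had 21.5, 21.7 and 27.2 CPM with taurocholate and 22.1, 22.6 and 25.1 CPM untreated. There were 27.6 to 41.6 miR-125b-1-3p reads for each miR-125b-2-3p read in every library, and neither arm separates the groups. Beside them, the 3p arm of let-7a-2 had 6 to 9 reads and that of let-7c-1 15 to 27 reads per library, while let-7e-3p had 42 to 72.

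The 5′ ends were nearly uniform, so almost every read of a member carries its named seed. The most frequent start held 98.8% to 99.2% of miR-99a-5p, 99.1% to 99.3% of miR-99b-5p, 99.2% to 99.3% of miR-100-5p, 99.7% to 99.9% of miR-125a-5p and 98.1% to 98.6% of miR-125b-5p reads per library. In miR-99b-5p all taurocholate libraries were below all untreated ones, by a mean of 0.114 percentage points (exact permutation p 0.1, adjusted 0.5), and the other 4 overlap. Shifted starts were of different kinds. miR-99a-5p had 0.968% of reads starting 1 nt upstream, and miR-125b-5p had 1.40% starting 1 nt downstream, which would move the seed by a base.

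The 3′ ends differed much more, and here the last base of a read matters. Error-free forms of 4 members are given 5′ to 3′ as in the deposited reads, with the last base in capitals, to show how 1 base of length changes it.
miR-100-5p, 21 nt: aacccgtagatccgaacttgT
miR-100-5p, 22 nt: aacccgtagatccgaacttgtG
miR-99b-5p, 21 nt: cacccgtagaaccgaccttgC
miR-99b-5p, 22 nt: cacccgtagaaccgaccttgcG
miR-125a-5p, 22 nt: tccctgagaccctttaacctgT
miR-125a-5p, 23 nt: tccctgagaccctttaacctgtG
miR-125a-5p, 24 nt: tccctgagaccctttaacctgtgA
miR-125b-5p, 21 nt: tccctgagaccctaacttgtG
miR-125b-5p, 22 nt: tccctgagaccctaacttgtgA
In miR-100, miR-99b and miR-125a the form ending in G is 1 base longer than one ending in T or C. Mature let-7a-5p and let-7e-5p end in a pair of U, read as T.

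The share of reads ending in G, matched or not, was higher with taurocholate for every member 5p arm. The last base became a measure only once these data had been looked at. In miR-100-5p it was 77.3%, 65.0% and 62.9% with taurocholate and 53.9%, 56.3% and 55.3% untreated. In miR-99b-5p it was 69.7%, 50.8% and 50.7% with taurocholate and 44.1%, 44.9% and 44.0% untreated. Taurocholate library 1 is highest in both, and the other 2 taurocholate libraries also lie above all untreated ones.

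miR-125a-5p ended in G in 65.2%, 50.6% and 48.4% of reads with taurocholate and in 43.1%, 43.8% and 39.4% untreated. miR-125b-5p did so in 59.9%, 42.1% and 39.5% with taurocholate and in 37.9%, 35.1% and 34.6% untreated. miR-99a-5p, in which G is the less frequent end, had 43.6%, 13.8% and 17.5% with taurocholate and 13.6%, 11.6% and 12.9% untreated. The groups do not overlap in any of the 5, but in miR-99a-5p and miR-125b-5p they are close apart from taurocholate library 1. Each difference had a two-sided exact permutation p of 0.1, also after adjustment over the 5 arms.

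Without taurocholate library 1 the difference was 2.94 percentage points in miR-99a-5p against 12.3 with it. It was 6.39 against 12.7 in miR-99b-5p, 8.77 against 13.2 in miR-100-5p, 7.42 against 12.7 in miR-125a-5p and 4.93 against 11.3 in miR-125b-5p. Without replicate 1 of both groups the 5 differences were between 3.40 and 8.13 points. Such a separation was frequent in the table, since 30.8% of 107 features with at least 500 reads in every library had every taurocholate library above. In all miRNA reads, a last base of G, matched or not, was found in 31.7%, 6.76% and 8.06% with taurocholate and 8.78%, 5.65% and 5.63% untreated, which overlap. A G that matched the precursor was the last base of 9.62%, 5.22% and 6.17% with taurocholate and 3.46%, 4.45% and 4.19% untreated, which do not.

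Reads ending in T showed the opposite, again in every member. In miR-100-5p they were 10.2%, 14.9% and 15.4% with taurocholate and 26.2%, 21.9% and 22.2% untreated. miR-99a-5p had 37.2%, 59.2% and 55.0% with taurocholate and 66.1%, 61.9% and 61.5% untreated. All taurocholate libraries lie below all untreated ones in the 5 arms, as in 63.6% of the 107 features. The exact permutation p was 0.1 each, adjusted 0.1, again for a measure chosen after the data were seen. The difference was smallest in miR-99b-5p, at -5.40 points, with -2.996 without taurocholate library 1 and -1.46 without replicate 1 of both groups. It was -12.7 points in miR-99a-5p, with -6.10 and -4.63 in these settings. In miR-100-5p, miR-125a-5p and miR-125b-5p it was -9.94, -10.2 and -8.96 points, and -6.91, -7.25 and -4.78 without replicate 1 of both groups. Over error-free reads alone the difference was -0.36 points in miR-99b-5p, against -11.8 to -9.44 points in the other arms.

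**Figure D2:**
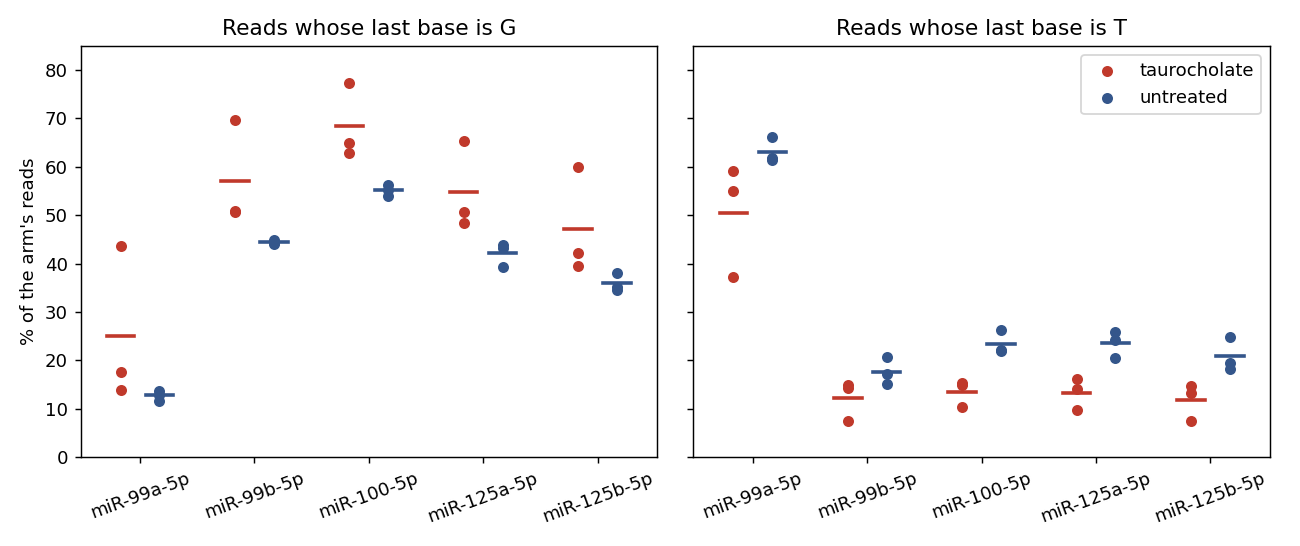
Percentage of each member's 5p reads whose last base is G (left panel) or T (right panel) in 3 taurocholate libraries (red) and 3 untreated libraries (blue); each point is a library and each bar the group mean. Red points lie above blue ones for G and below them for T in all 5 arms, with taurocholate library 1 farthest away (77.3% G in miR-100-5p).

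Among error-free forms, reads of 1 miRNA divided in the same way. The 22-nt form of miR-100-5p, ending in G, had 7826, 6899 and 7073 CPM with taurocholate and 3894, 5157 and 4639 CPM untreated. Its 21-nt form, ending in T, had 1063, 1332 and 1448 CPM with taurocholate and 1613, 1700 and 1531 CPM untreated. The longer form separates the groups upward and the shorter one downward.

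miR-99b-5p of 22 nt, ending in G, had 5076, 3257 and 3559 CPM with taurocholate and 1914, 2623 and 2322 CPM untreated. Its 21-nt form ends in C and overlaps, at 921 to 977 CPM with taurocholate and 648 to 1017 CPM untreated. miR-99a-5p, the arm whose total had a log2 fold change of -0.05, had 3225, 5208 and 4483 CPM of its 21-nt form ending in T with taurocholate and 5481, 5263 and 5544 CPM untreated. Its 22-nt form ending in G overlaps between the groups, at 998 to 1421 CPM with taurocholate and 607 to 1011 CPM untreated.

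In the miR-125 pair, whose levels overlap, the forms are given as shares. The 23-nt form of miR-125a-5p, ending in G, made up 40.1%, 43.7% and 41.7% of its reads with taurocholate and 32.1%, 38.2% and 33.6% untreated. Its 22-nt form ending in T made up 5.68%, 8.85% and 10.6% with taurocholate and 16.9%, 13.6% and 15.5% untreated. For miR-125b-5p, the 21-nt form ending in G had 32.7%, 36.5% and 32.8% with taurocholate and 27.9%, 30.3% and 28.9% untreated. The forms ending in A, of 24 nt in miR-125a-5p and 22 nt in miR-125b-5p, overlap.

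Mean length differed by little. It was above in every taurocholate library for miR-99a-5p, at 21.42 ± 0.05 nt with taurocholate and 21.31 ± 0.04 nt untreated (SD, n = 3 each). So it was for miR-100-5p, at 21.81 ± 0.01 nt with taurocholate and 21.75 ± 0.02 nt untreated, and for miR-125a-5p, at 23.09 ± 0.06 nt with taurocholate and 22.99 ± 0.04 nt untreated, each with an exact permutation p of 0.1 and 0.167 adjusted. Of the 107 features 10.3% had a mean length above in this way. The share of reads whose only mismatch was the last base was above in miR-99a-5p, at 39.7%, 30.9% and 31.8% with taurocholate and 28.1%, 30.3% and 29.9% untreated. It was below in miR-99b-5p, at 21.6%, 34.9% and 36.2% with taurocholate and 42.6%, 38.1% and 41.2% untreated, and in miR-100-5p, at 18.1%, 22.6% and 24.4% with taurocholate and 26.05%, 25.2% and 26.4% untreated. These 3 had an exact permutation p of 0.1 and 0.167 adjusted. Without taurocholate library 1 the differences were 1.95, -5.09 and -2.35 points, against 4.72, -9.72 and -4.17 with it. How many of all features separate the groups in this share was not counted, so these 3 arms cannot be called unusual.

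Splitting each arm by the last base of its reads, on the scale of all reads, gave unlike fold changes within 1 miRNA. The split was chosen after the data were seen. Reads ending in G had log2 fold changes of 0.84 (SE 0.46) for miR-99a-5p, 0.81 (SE 0.32) for miR-99b-5p and 0.71 (SE 0.29) for miR-100-5p. miR-125a-5p had 0.70 (SE 0.42) and miR-125b-5p 0.86 (SE 0.42). All 5 are positive, as were 97.9% of the 194 features tested on such reads, whose median was 0.97. Without taurocholate library 1 they were 0.29 (SE 0.19) for miR-99a-5p, 0.60 (SE 0.16) for miR-99b-5p, 0.64 (SE 0.16) for miR-100-5p, 0.40 (SE 0.27) for miR-125a-5p and 0.40 (SE 0.16) for miR-125b-5p, while 59.8% of features were positive, with a median of 0.19. Without replicate 1 of both groups the 5 ran from 0.29 to 0.64, and 85.2% of features were positive.

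Reads ending in T had -0.35 (SE 0.28) for miR-99a-5p, -0.10 (SE 0.27) for miR-99b-5p and -0.39 (SE 0.23) for miR-100-5p. For miR-125a-5p the value was -0.51 (SE 0.22) and for miR-125b-5p -0.45 (SE 0.18). All 5 are negative, as were 89.3% of 281 features, with a median of -0.41. Without taurocholate library 1, miR-99b-5p was at 0.14 (SE 0.16) and miR-99a-5p at -0.12 (SE 0.21), and without replicate 1 of both groups at 0.26 (SE 0.15) and -0.02 (SE 0.21). miR-100-5p was then at -0.20 and -0.10, miR-125a-5p at -0.43 and -0.49 and miR-125b-5p at -0.34 and -0.30, and 76.7% and 70.1% of all features were negative. let-7a-5p had 1.52 (SE 1.08) for reads ending in G and -0.62 (SE 0.19) for reads ending in T, and let-7e-5p 1.03 (SE 0.77) and -0.65 (SE 0.20). The let-7 values for G ends turned to -0.56 (SE 0.61) for let-7a-5p and -0.15 (SE 0.40) for let-7e-5p without taurocholate library 1, and were 0.18 (SE 0.25) and 0.22 (SE 0.23) without replicate 1 of both groups.

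**Figure D3:**
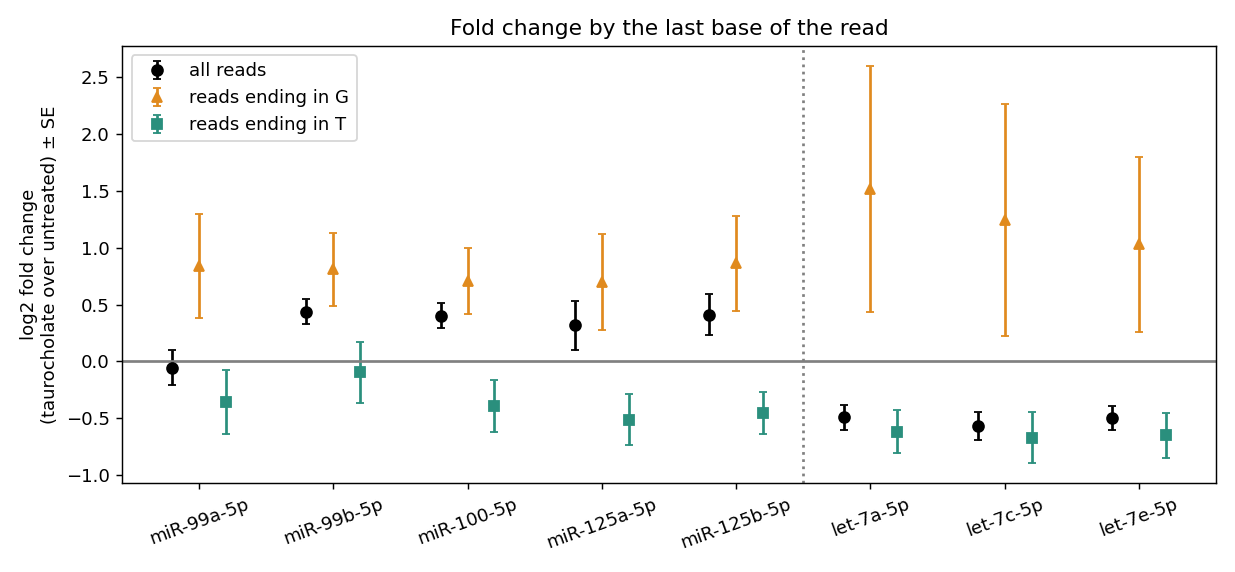
Log2 fold change, taurocholate over untreated, with its standard error, for 5 member 5p arms and 3 let-7 5p arms, from all reads (black circles), reads ending in G (orange triangles) and reads ending in T (green squares), fitted with edgeR on 3 libraries a group. Triangles lie above 0 and squares below 0 in all 8 arms, and the circles of the members other than miR-99a-5p lie above 0 while those of let-7 lie below. Without taurocholate library 1 the let-7 triangles fall below 0 and the square of miR-99b-5p lies above it (0.14).

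The members had more reads ending in G and fewer ending in T than the 3 let-7 arms. Like let-7, miR-99a-5p mostly ended in T. Over all libraries, reads ending in G were 63.2% of miR-100-5p, 52.5% of miR-99b-5p, 51.7% of miR-125a-5p, 43.7% of miR-125b-5p and 18.8% of miR-99a-5p. They were 5.60% of let-7a-5p, 6.01% of let-7c-5p and 8.10% of let-7e-5p. Reads ending in T were 13.97% to 17.4% of the members apart from miR-99a-5p, 56.7% of miR-99a-5p and 71.4% to 75.2% of the 3 let-7 arms. miR-99a-5p is thus the member with most T ends, and its total had the log2 fold change nearest to 0. In miR-125b-5p, G was the most frequent end with all libraries pooled. A was more frequent than G in taurocholate libraries 2 and 3 (42.4% and 43.3% against 42.1% and 39.5%). So it was in untreated libraries 2 and 3 (43.1% and 43.0% against 35.1% and 34.6%).

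Across the table, tested features of at least 10 CPM whose most frequent last base was G had positive log2 fold changes in 32 of 37 cases (median 0.32), and in 28 of 33 without the members (median 0.29). Those mostly ending in T were positive in 40 of 168 (median -0.19). Features mostly ending in A were positive in 29 of 34 and those ending in C in 17 of 27. Features of 1 table share libraries and depth, so these counts are a description. They include taurocholate library 1, where 31.7% of all miRNA reads ended in G, and were not taken without it. miR-125b-5p is counted in them under G.

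**Figure D4:**
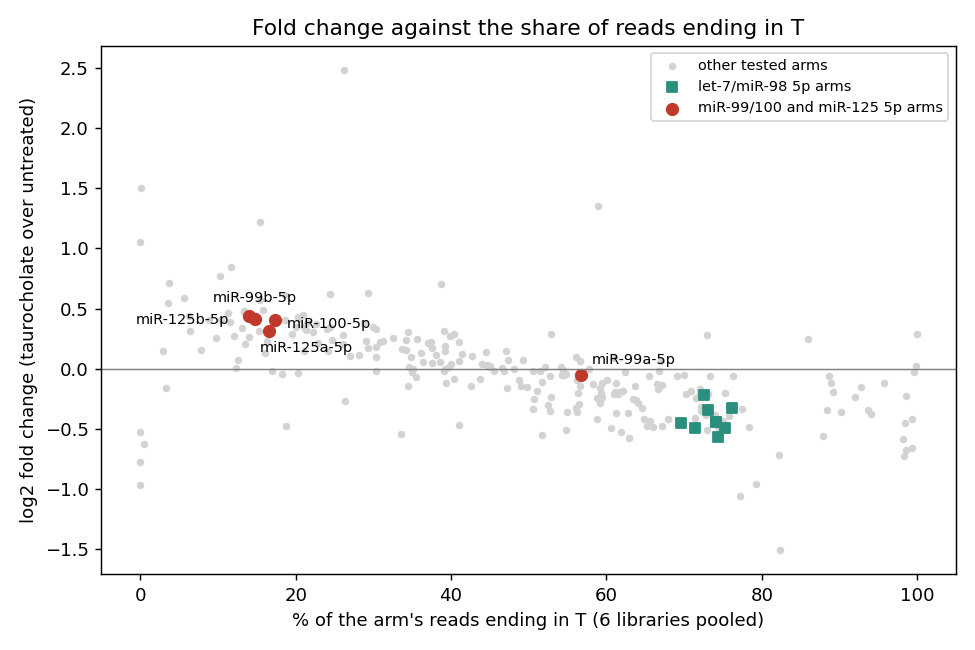
Log2 fold change, taurocholate over untreated, against the percentage of an arm's reads ending in T over the 6 libraries, for tested features of at least 10 CPM; each point is a feature, with the member 5p arms in red and let-7 and miR-98 5p arms as green squares. Features with few T ends lie mostly above 0 and those with many below; miR-99a-5p, with 56.7% T ends, lies at -0.05.

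The ratio of a member to the mature let-7 arm made in its cluster does not depend on library size. The fold changes of both sides were known when the members were chosen, so the ratios are a description with no test. How often other pairs of features separate the groups was not counted. Reads of miR-99b-5p per let-7e-5p read were 8.15, 7.90 and 5.89 with taurocholate and 3.88, 3.75 and 3.75 untreated. The groups do not overlap, with a log2 difference of 0.93. For miR-125a-5p per let-7e-5p read they were 0.676, 0.425 and 0.510 with taurocholate and 0.258, 0.351 and 0.296 untreated, a log2 difference of 0.82, and 0.53 without replicate 1 of both groups.

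The let-7a-5p, let-7c-5p and miR-125b-5p reads also come from other genes, so ratios with them do not compare 1 cluster alone. Over all libraries let-7a-2-3p had 43 reads and let-7c-1-3p 124, against 10062 for the 3p arm shared by let-7a-1 and let-7c-2. The part of each gene in the 5p reads was not tested. For the second cluster, miR-100-5p per let-7a-5p read stood at 2.46, 3.14 and 2.04 with taurocholate and 1.48, 1.33 and 1.25 untreated, a log2 difference of 0.89. For miR-125b-5p per let-7a-5p read the log2 difference was also 0.89, and per let-7c-5p read 0.97, with no overlap. Without taurocholate library 1 these were 0.70 and 0.71, and without replicate 1 of both groups 0.66 and 0.67. miR-99a-5p per let-7c-5p read was 1.38, 1.80 and 1.06 with taurocholate and 1.13, 0.827 and 0.991 untreated, which overlap, with a log2 difference of 0.50. It was 0.31 without taurocholate library 2. Between members of 1 cluster, miR-99b-5p per miR-125a-5p read was 12.1, 18.6 and 11.6 with taurocholate and 15.0, 10.7 and 12.7 untreated, a log2 difference of 0.12 with overlap.

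The same ratios were taken over reads with 1 last base. With reads ending in G on both sides, the log2 difference was 0.11 for miR-99b-5p over let-7e-5p, -0.0026 for miR-125a-5p over let-7e-5p, -0.06 for miR-100-5p over let-7a-5p and 0.13 for miR-99a-5p over let-7c-5p. Without taurocholate library 1 these were 0.68, 0.50, 1.02 and 0.79, and without replicate 1 of both groups 0.35, 0.08, 0.49 and 0.39, in the same order of pairs. The differences over G ends were thus larger without taurocholate library 1 in all of these pairs. Without replicate 1 of both groups, however, that of miR-125a-5p over let-7e-5p stayed small, at 0.08. The cause was not tested.

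With reads ending in T the log2 difference was 0.52 for miR-99b-5p over let-7e-5p, 0.13 for miR-125a-5p over let-7e-5p, 0.21 for miR-100-5p over let-7a-5p and 0.28 for miR-99a-5p over let-7c-5p. Without replicate 1 of both groups these were 0.77, -0.0054, 0.45 and 0.48. With all libraries the groups overlap in each of these 8 comparisons except miR-99b-5p over let-7e-5p with reads ending in T, at 1.08, 1.59 and 1.17 with taurocholate and 1.06, 0.760 and 0.848 untreated. let-7 reads ending in G were few in some libraries, with 138 for let-7e-5p in the lowest, and largely mismatched, so that ratio is the least precise.

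The pair miR-100-5p and miR-99a-5p, which differ at 1 base but not in seed, was compared in the same way. Reads of miR-100-5p per miR-99a-5p read were 1.43, 1.20 and 1.37 with taurocholate and 0.904, 1.07 and 0.921 untreated, a log2 difference of 0.47 without overlap. Over reads ending in G the log2 difference was -0.02, and over reads ending in T 0.0045, both with overlap. The value over G ends was 0.34 without taurocholate library 1 and 0.22 without replicate 1 of both groups, and the value over T ends -0.06 in both settings.

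**Figure D5:**
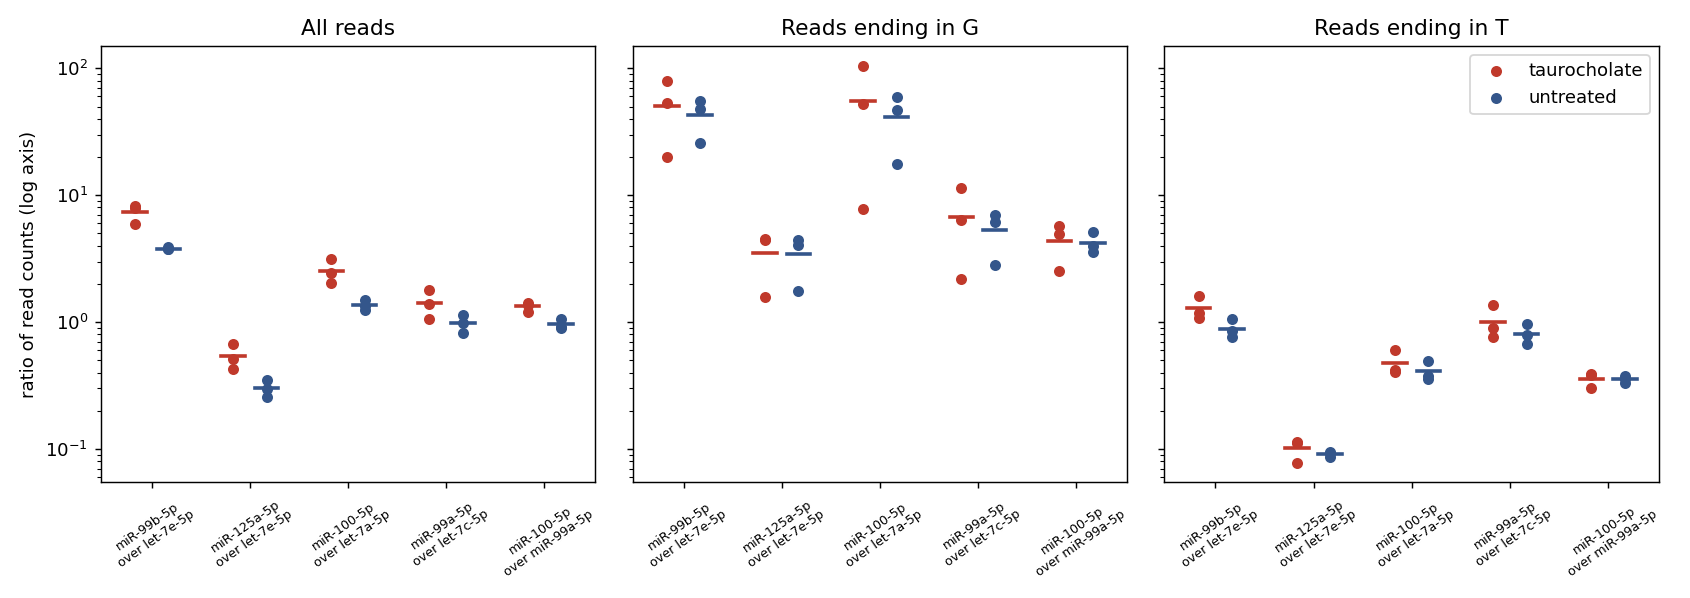
Ratio of read counts (log axis) for 4 pairs of a member and a let-7 arm and for miR-100-5p over miR-99a-5p, over all reads (left panel), reads ending in G (middle) and reads ending in T (right); each point is 1 of 3 taurocholate libraries (red) or 3 untreated libraries (blue) and each bar the group mean. Over all reads 4 of the 5 pairs separate the groups, which describes members chosen with this contrast known. Over reads ending in G none does, with taurocholate library 1 lowest in each pair. Over reads ending in T miR-99b-5p over let-7e-5p does.

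Some miR-125b-5p reads matched 1 of its genes better than the other. Reads that matched miR-125b-2 better numbered 755, 50 and 87 with taurocholate and 111, 76 and 48 untreated, and 93.6% of them ended in G, including 746 of the 755 in taurocholate library 1. Reads that matched miR-125b-1 better numbered 723, 671 and 926 with taurocholate and 852, 1145 and 720 untreated, and 1.55% ended in G. Such reads are therefore not used as a level of either locus.

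A further product came from the miR-125a hairpin just before the 5p arm. These reads are shown because they end at the base before the miR-125a-5p start, position 20 of the deposited reference, and all were free of mismatches.
Reads of 18 nt before miR-125a-5p: acactgccggcctctggg
Reads of 17 nt before miR-125a-5p: cactgccggcctctggg
All reads ending before the 5p arm numbered 96, 55 and 73 with taurocholate and 37, 65 and 31 untreated, which overlap. They are included in the level of miR-125a-5p and left out of its arm ratio and end shares. miR-125b had 28 such reads over the 6 libraries.

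By Pearson correlation of log2 CPM over the 6 libraries, among 264 other features of at least 10 CPM, the features most like each member were as follows. For miR-99b-5p they were miR-25-3p (r = 0.972), miR-100-5p (r = 0.953) and miR-101b-3p (r = 0.900). For miR-100-5p they were miR-27a-5p (r = 0.963), miR-25-3p (r = 0.960) and miR-99b-5p. miR-99a-5p was most like miR-22-5p (r = 0.981), miR-708-3p (r = 0.960) and miR-129-5p (r = 0.953).

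miR-125a-5p was most like miR-708-5p (r = 0.991), miR-193a-5p (r = 0.955) and miR-196a-5p (r = 0.904), and miR-125b-5p most like miR-140-3p (r = 0.977), miR-103-3p (r = 0.976) and miR-34c-3p (r = 0.971). The features outside the members that were nearest to miR-99b-5p, miR-100-5p, miR-125a-5p and miR-125b-5p most often ended in A or G, and those nearest to miR-99a-5p in T or C. No let-7 arm was among them. These 6 points share libraries and depth, and the correlations are given with no p.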

How the data were processed

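RNA was enzymatically treated before library preparation, per the labels' protocols, so that modified tRNA fragments could be ligated and copied, and libraries were selected by size. The submitters' processing notes name Novoalign 2.07.11, cutadapt and FastQC, and no build is given in the sources used here. The authors deposited counts, with 1 line for each alignment of a distinct read sequence to a precursor and its number of reads, per the file headers. Alignments carried at most 1 mismatch and reads were 16 to 28 nt long.

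Each read was counted 1 time per library. Arms were set by position, and reads matching several precursors formed combined features, giving 662 features. CPM is scaled to all miRNA reads. Fold changes come from edgeR 4.0.16 (R 4.3.3, quasi-likelihood test, TMM, filterByExpr, group as the sole term, Benjamini-Hochberg adjustment over 341 tested features, threshold 0.05), with SE derived from the F statistic. TMM factors were 0.83 to 1.16 with taurocholate and 0.88 to 1.05 untreated. DESeq2 1.42.0 was an alternative. Arm ratios took a pseudocount of 0.5, and arm ratios, shares and lengths went through an exact permutation test over libraries (two-sided, lowest possible p 0.1). On simulated counts of this comparison (341 features, 40 changed, 5 runs) 36% of 2-fold changes and 84% of 4-fold changes were called.

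Named features are all arms of the members, the let-7 genes beside them, miR-10a, miR-10b, miR-351 and the 3 features most correlated with each 5p member. Members and lists were chosen with earlier results of these data known. Replicate numbers come from the sample titles, which do not say what they pair. Deviations from the group means of same-numbered libraries correlated at 0.29, 0.64 and 0.20, all over 0.1. The numbers were therefore taken as pairs in a replicate block, run as an alternative, while the main tests are unpaired. The pairing is uncertain, since taurocholate library 3 correlated best with untreated library 1 (0.42). Alternatives covered scaling, filters, mismatches, read length, shared reads, the replicate block and leaving out libraries. The tRNA reads were used for a scaling alternative and for nothing else.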

Additional observations from a re-analysis of the deposited data

How the results depend on the processing

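Depth limits the 3p arms of miR-99a and miR-100 most, with at most 24 reads per library. With 3 libraries a group the exact tests could not pass a threshold of 0.05, so a p of 0.1 says nothing about stability. Numbers of features called were 0 in edgeR under every scaling, filter and left-out library run, and 18 in DESeq2. With the replicate block edgeR called 0 features, the log2 fold change of miR-99b-5p was 0.43 and that of miR-100-5p 0.40; the block changed no call, and the smallest p of a sign permutation over 3 pairs is 0.25. Library totals in place of TMM moved the median of all features to 0.02, against -0.04.

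Fold changes near 0 changed sign with the setting, and the cause was not tested. For miR-99a-5p the log2 fold change was 0.019 with no filter, 0.0098 in DESeq2, 0.14 without replicate 1 of both groups and 0.84 for reads ending in G, and -0.20 to 0.064 when 1 library was left out. miR-125a-3p had 0.0019 with no filter, 0.053 without replicate 1 of both groups, 1.38 for reads ending in G and -0.12 to 0.066 with 1 library left out. miR-125b-3p had 0.12, 0.95 and -0.33 to 0.0056 under the last 3 of these. Reads ending in T reversed miR-100-5p (-0.39), miR-99b-5p (-0.10), miR-125a-5p (-0.51), miR-125b-5p (-0.45), miR-99b-3p (-0.47) and the reads shared by miR-100-5p and miR-99a-5p (-0.33).

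Error-free reads moved the miR-99/100 seed sum to a log2 difference of 0.43, miR-99b-5p over let-7e-5p to 1.20 and miR-100-5p over miR-99a-5p to 0.61, and gave a mean length of miR-125b-5p higher by 0.0048 nt. Reads ending in G gave log2 differences of 0.11 (miR-99b-5p over let-7e-5p), -0.0026 (miR-125a-5p over let-7e-5p), 0.13 (miR-99a-5p over let-7c-5p), -0.063 (miR-100-5p over let-7a-5p), 0.18 and 0.0041 (miR-125b-5p over let-7c-5p and let-7a-5p) and -0.018 (miR-100-5p over miR-99a-5p). Reads ending in T gave 0.52 and 0.13 over let-7e-5p, 0.21 for miR-100-5p over let-7a-5p, 0.24 and 0.17 for miR-125b-5p over let-7c-5p and let-7a-5p, and 0.0045 for miR-100-5p over miR-99a-5p. Without replicate 1 of both groups miR-125a-5p over let-7e-5p was 0.53.

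The last-base splits changed when taurocholate library 1 was left out. Without it, the log2 fold change of reads ending in G was -0.56 for let-7a-5p, -0.65 for let-7c-5p and -0.15 for let-7e-5p, and the G-end ratios of miR-125a-5p over let-7e-5p, miR-100-5p over let-7a-5p and miR-100-5p over miR-99a-5p differed by 0.50, 1.02 and 0.34. The T-end ratio of miR-100-5p over miR-99a-5p was -0.062, and T ends of miR-99b-5p had 0.14. Without replicate 1 of both groups, T ends of miR-99b-5p had 0.26, miR-125a-5p over let-7e-5p was 0.076 for G and -0.0054 for T ends, miR-100-5p over let-7a-5p 0.49 for G ends, and miR-100-5p over miR-99a-5p 0.22 and -0.057.

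Counting each sequence 1 time reversed the log2 arm ratio of miR-100 (-0.054) and miR-125a (-0.043). It also reversed the start share of miR-99a-5p (-0.619 points), miR-100-5p (-1.23) and miR-125b-5p (-3.37), the mean length of miR-99b-5p (-0.0020 nt) and miR-100-5p (-0.131 nt), and the last-base mismatch share of miR-99a-5p (-1.03 points) and miR-125b-5p (0.636 points). With 1 library left out, the start share difference ran from -0.0671 to 0.0083 points in miR-125a-5p and from -0.0916 to 0.166 in miR-125b-5p. Mean length ran from -0.0016 to 0.0621 nt in miR-99b-5p and from -0.0253 to 0.0077 nt in miR-125b-5p, the last-base mismatch share of miR-125b-5p from -1.44 to 0.114 points, and miR-99b-5p over miR-125a-5p from -0.10 to 0.24 on the log2 scale.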

Other observations

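Mismatches inside the read, before its last base, were most frequent in taurocholate library 1 in all 5 members. They were in 17.7%, 6.91% and 6.72% of miR-100-5p reads with taurocholate and in 8.91%, 5.39% and 7.23% untreated, and in 15.8%, 5.22% and 5.15% of miR-99b-5p reads with taurocholate and in 6.44%, 4.42% and 5.77% untreated. In miR-99a-5p taurocholate library 1 was close to untreated library 1, at 8.31% against 7.23%. The groups overlap in all 5 members. Most frequent was 21T>C in miR-100-5p, in 2.51% of its reads, and 20G>A in miR-99b-5p, in 2.24%, with positions counted from the 5′ end of the read and the base of the precursor first.

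The 3p arm shared by let-7a-1 and let-7c-2, which are not beside a member, had 398, 410 and 480 CPM with taurocholate and 563, 522 and 582 CPM untreated, with every taurocholate library below. let-7e-3p had 20.9, 14.8 and 19.2 CPM with taurocholate and 13.7, 18.1 and 18.3 CPM untreated, which overlap. The 3p arms of the members began less uniformly than the 5p arms in some hairpins: the most frequent start held 98.9% of miR-99b-3p, 95.5% of miR-125b-1-3p and 88.0% of miR-125a-3p reads over all libraries.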
